A study of Rattus norvegicus with 24 samples.

Results

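The resting zone of the rat growth plate was compared with the tissue on either side of it, epiphyseal cartilage above and the proliferative zone below, to find transcripts whose level peaked or dipped in the resting layer itself. Within each numbered animal (the Biol rep number of the array titles), the resting array was set against the average of its neighbours. These were the epiphyseal and proliferative arrays of the same number, on the log2(signal + 16) scale. All 3 tissues were measured in animals 1, 2, 4 and 5, which gave 12 of the 24 arrays of the series, with 4 arrays per tissue. The resting and proliferative arrays of animal 3, which has no partner among the epiphyseal arrays used here, took no part in the fit and were kept as a separate look at the same genes. The transition arrays (between the proliferative and hypertrophic zones) and the hypertrophic arrays were used only to place these genes along the plate.

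All arrays came from the proximal tibia of uncastrated rats aged 1 week. The labels of the resting and proliferative arrays name male animals 7 days old, and those of the epiphyseal arrays give neither sex nor age in days beside the age of 1 week. Frozen sections 60 µm thick were stained and cut apart by hand under the microscope, so each array reads the RNA of all cells in a strip of tissue, and in such bulk samples a different share of a cell type cannot be told apart from a different amount of RNA per cell. RNA amounts of 50 to 100 ng were amplified in 2 cycles and read on Affymetrix arrays, in which a probe set is a group of short oligonucleotides for one transcript. The arrays of the epiphyseal cartilage carry labels worded differently from those of the resting and proliferative zones, so for the epiphyseal side a batch and the zone cannot be told apart. Both neighbour comparisons share the same 4 resting arrays.

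Growth plate cartilage lengthens bones. Resting chondrocytes, the slowly dividing cells nearest the epiphysis, include the progenitors that feed the columns of proliferative chondrocytes, which divide, then enlarge in the hypertrophic zone and mineralize their matrix. Indian hedgehog from maturing chondrocytes and parathyroid hormone-related protein from the top of the plate form a feedback loop that sets the pace of differentiation, and Wnt, BMP, FGF and IGF signals act alongside it. Epiphyseal cartilage lies on the joint side of the resting zone and is itself later replaced by the bone of the secondary ossification centre.

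Cartilage markers were high in all 3 tissues. Of 8 listed chondrocyte markers 6 were tested, and limma called 0 of them different from the average of the neighbours (1 at an unadjusted p below 0.05). The mean signal of Col2a1, the main cartilage collagen, was 64910 ± 21410 (SD, n = 4 here and below unless stated) in epiphyseal cartilage, 73550 ± 32130 in the resting zone and 76770 ± 30830 in the proliferative zone. Markers of other tissues were present too. The summed signal of the 15 tested of 20 skeletal muscle markers ran from 6769 to 59930 in epiphyseal, 13210 to 76770 in resting and 7310 to 19820 in proliferative arrays, and on the log2 scale their mean lay 0.74, 0.58, 0.37 and 2.29 above the neighbours in animals 1, 2, 4 and 5. The resting arrays of animals 1 and 5 held the most muscle signal among the 4. For osteoclast and macrophage markers (6 of 14 tested) the sum ran from 2416 to 64660 in epiphyseal, 1397 to 25320 in resting and 609.9 to 1400 in proliferative arrays, with the epiphyseal arrays of animals 1 and 2 the highest. The part of either marker list in the results was not tested, except that the counts were repeated without these arrays. Actin probes near the 3′ end over those near the 5′ end, a log2 reading of RNA quality, averaged 4.03 ± 0.67 in epiphyseal, 4.07 ± 0.27 in resting and 4.43 ± 0.34 in proliferative arrays. The same reading for Gapdh ordered the tissues otherwise, at 2.91 ± 0.36, 2.71 ± 0.44 and 2.75 ± 0.34.

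**Figure D1:**
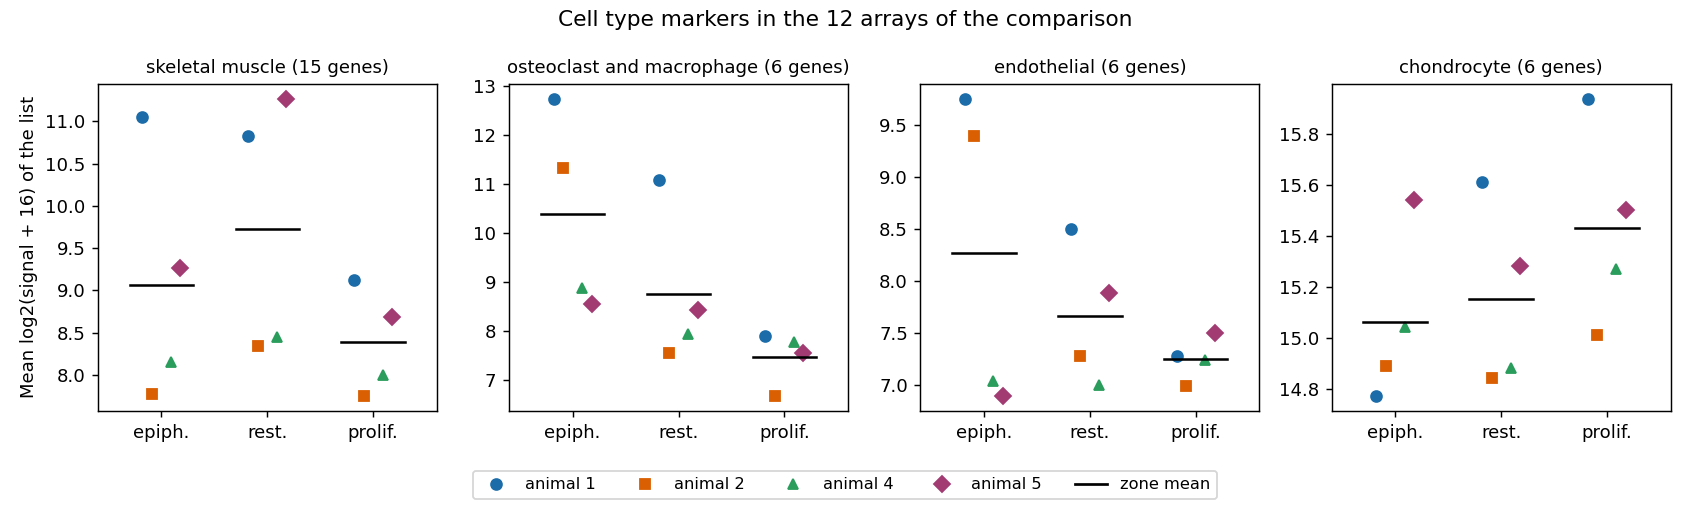
Mean log2(signal + 16) of the tested markers of 4 cell types in each of the 12 arrays, by tissue, with 1 point per animal and a line at the mean of 4. The resting muscle points of animals 1 and 5 stand well above those of animals 2 and 4, the epiphyseal osteoclast and macrophage points of animals 1 and 2 stand above those of animals 4 and 5, and the chondrocyte points overlap between tissues.

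Most transcripts called against the average of the neighbours were called against the proliferative zone. Of 16987 probe sets tested, 244 (1.44%) were called higher in the resting zone and 107 (0.63%) lower, at an adjusted p below 0.05 and a change of at least 2-fold. The resting mean lay above both neighbours in 211 of the 244, and between them in 33, of which 31 lay nearer epiphyseal cartilage. Called separately, 184 of the 244 differed from the proliferative zone but not from epiphyseal cartilage, 17 from epiphyseal cartilage but not from the proliferative zone, 40 from each and 3 from neither, where a difference that was not called is not shown to be absent. Of the 107 lower probe sets, the resting mean lay below both neighbours in 100. Against the proliferative zone alone 707 (4.16%) were higher and 338 (1.99%) lower, and against epiphyseal cartilage alone 154 (0.907%) were higher and 159 (0.936%) lower.

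A peak was called where the resting zone exceeded the average of its neighbours by that rule and also exceeded each neighbour with an adjusted p below 0.05, taking the larger of the 2 p-values for each probe set. A dip was the reverse. There were 33 peaks (0.194%) and 26 dips (0.153%). In 26 peaks and 19 dips the difference from the closer neighbour was at least 2-fold. That smaller difference had a median of 1.12 log2 units among the peaks, from 0.82 to 3.37, and a median size of 1.12 among the dips, from 0.71 to 2.54. Peaks with a single gene name came to 19 genes and dips to 22, when each gene is read by its brightest probe set, out of 9690 genes (0.196% and 0.227%). The counts rest on few animals: leaving out 1 animal at a time gave 6 to 29 peaks and 7 to 20 dips, the lowest of both without animal 2, and 9 peaks and 13 dips were called without the resting arrays of animals 1 and 5. With the animals not used as a block, 10 peaks and 6 dips were called.

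**Figure D2:**
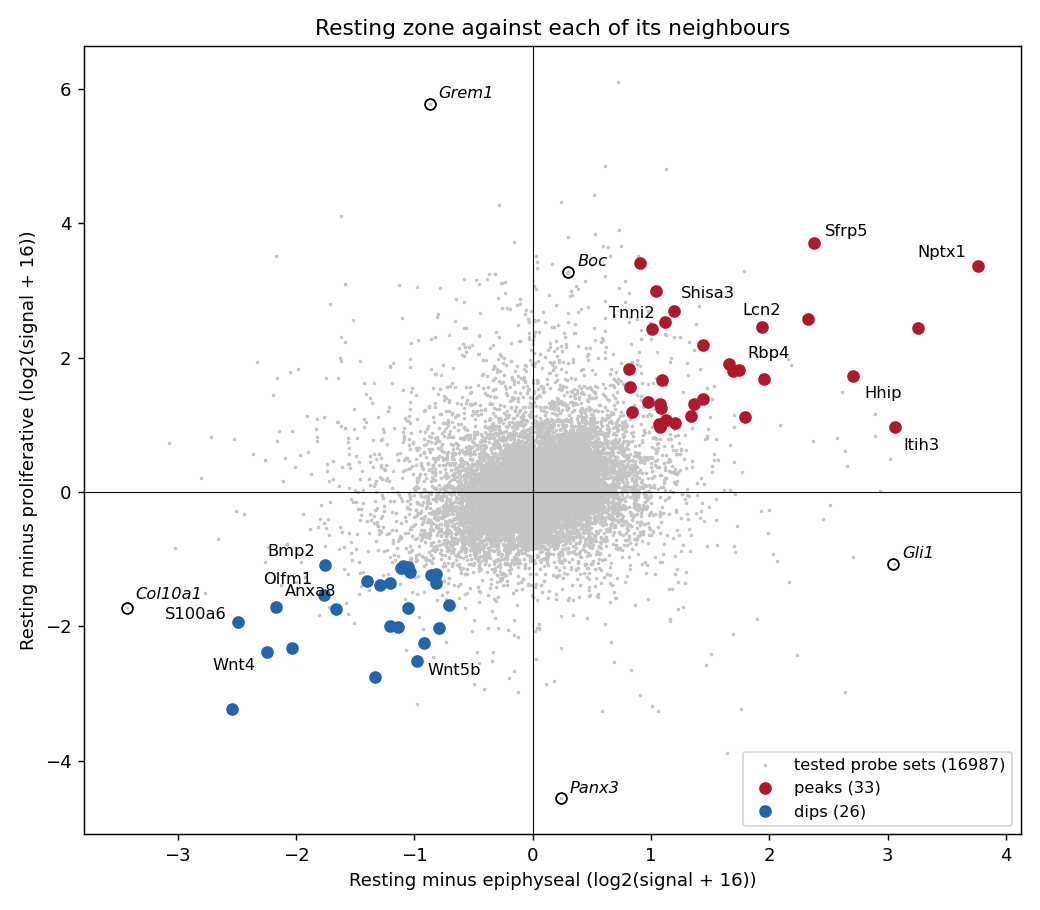
Resting minus epiphyseal difference (x axis) against resting minus proliferative difference (y axis), both in log2(signal + 16), for 16987 probe sets as means of 4 animals. The 33 peaks lie in the upper right, the 26 dips in the lower left, and open circles mark genes called neither a peak nor a dip, such as Boc, Grem1, Panx3 and Gli1. The axes share the resting arrays, so the slope of the cloud is no result.

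Among the named peaks, Nptx1 had the largest difference from the closer neighbour. Nptx1 (probe set 1370517_at), a secreted pentraxin best known at synapses, read 731, 4863, 4031 and 2452 in the resting arrays of animals 1, 2, 4 and 5. It read 73.6, 156, 213 and 288 in epiphyseal cartilage and 84.0, 217, 301 and 414 in the proliferative zone. Every resting value lay above every value of both neighbours, and animal 1 was the lowest of the animals in all 3 tissues. The difference from the average was 3.57 ± 0.24 log2 units (± standard error here and below, adjusted p 3.16e-07, limma), and the fold over the closer neighbour was 10.3.

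Sfrp5 (1393069_at) encodes a secreted protein that binds Wnt ligands and blocks their receptors. Its signal was 5893, 4179, 4298 and 2726 in the resting arrays, against 869, 579.6, 823 and 883 in epiphyseal cartilage and 354, 221, 363 and 286 in the proliferative zone. The 3 tissues did not overlap, with epiphyseal cartilage in the middle, and the resting zone lay 2.38 ± 0.19 above epiphyseal cartilage and 3.71 ± 0.19 above the proliferative zone on the log2 scale (adjusted p of the peak 7.19e-06). Further down the plate it fell away, to means of 112 in the transition and 80.9 in the hypertrophic arrays.

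Both carriers of small hydrophobic molecules among the named peaks, Lcn2 and Rbp4, behaved alike on each side. Lcn2 (1387011_at), a lipocalin that binds iron-loaded siderophores, read 2376, 1092, 1854 and 1561 in the resting arrays, 416, 235, 553 and 569.8 in epiphyseal and 318, 275, 360 and 223 in proliferative arrays. Rbp4 (1371762_at), the plasma carrier of retinol, read 5662, 5399.6, 5519 and 3469, 1136, 1034, 2043 and 1886 and 1371, 1106, 1469.8 and 1661 in the same order. The lowest resting array exceeded the highest neighbour array for each gene. The differences from the average were 2.19 ± 0.19 for Lcn2 and 1.78 ± 0.18 for Rbp4 (adjusted p of the peak 0.000296 and 0.00043). Nptx1, Sfrp5, Lcn2 and Rbp4 were the 4 of 19 peak genes whose peak call held under all 14 other settings tried.

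Hhip (1390606_at), a membrane protein that captures hedgehog ligands and is itself induced by hedgehog signalling, had its highest signal in the resting zone. Its resting values were 472, 609, 385 and 611, its epiphyseal values 77.8, 106, 55.1 and 36.1 and its proliferative values 107, 131, 143 and 209.7. No resting array overlapped a neighbour, and the difference from the average was 2.21 ± 0.31 (adjusted p 0.000299). As a peak it passed narrowly (adjusted p 0.0468) and did so in 2 of 14 other settings, with adjusted p up to 0.867. The proliferative side, at 1.72 ± 0.36, was the smaller difference.

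Pappa2, Bmp1, Smoc1, Shisa3 and Itih3 were also peaks. Pappa2, a protease that cleaves IGF-binding proteins and so frees IGF, read 1344, 1175, 950.4 and 967 in the resting, 385, 279.7, 392 and 566 in the epiphyseal and 163, 228, 214 and 333 in the proliferative arrays, without overlap. Its difference from the average was 1.82 ± 0.20, and it was no longer called a peak in 5 of the 14 other settings: no trend, without animal 2, without animal 4, without the epiphyseal arrays of animals 1 and 2 and without the resting arrays of animals 1 and 5 (highest adjusted p 0.146). Bmp1, the protease that trims fibrillar procollagens and also cuts the BMP antagonist chordin, averaged 3100 ± 608 against 1772 ± 511 and 1025 ± 61.1. In animal 4 the epiphyseal signal of Bmp1 exceeded the resting signal of animal 1, so these groups overlapped although the resting array was the highest within every animal. Smoc1, a matricellular protein that modulates BMP signalling, was higher by 1.21 ± 0.16 than epiphyseal cartilage and by 1.03 ± 0.16 than the proliferative zone. Shisa3, of a family whose founding member holds Wnt and FGF receptors inside the cell, was higher by 1.19 ± 0.22 and 2.70 ± 0.22, and Itih3, a heavy chain that is bound to hyaluronan in matrix, by 3.06 ± 0.18 and 0.97 ± 0.18. The peak call held in 8 of the 14 other settings for Bmp1 and 8 for Smoc1, and in 6 for Shisa3 (adjusted p up to 0.245) and 6 for Itih3 (up to 1.0), both of which kept it in 1 of the 4 fits that left out an animal. Another probe set of Bmp1, Smoc1 and Pappa2 was not called against the average, at differences of 0.71, 0.79 and 1.03.

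The remaining named peaks were membrane and intracellular proteins. Cpm, a membrane carboxypeptidase, exceeded the average by 1.78 ± 0.20, and Ephb3, a receptor for ephrin-B ligands, by 1.04 ± 0.13. Gnat3, the taste cell G protein subunit gustducin, exceeded it by 1.75 ± 0.28, Ncald, a neuronal calcium sensor, by 1.16 ± 0.16, and Limch1, an activator of non-muscle myosin, by 1.16 ± 0.11. Miga1, a mitochondrial fusion protein, was higher by 1.38 ± 0.19, C10h17orf58 by 1.19 ± 0.13 and Ddb2, which recognizes ultraviolet DNA damage, by 1.02 ± 0.17. Of the 14 other settings, the peak call held in 0 for Ddb2, 5 for Miga1 (adjusted p up to 0.593), 6 for Gnat3, 8 for Ncald and 8 for Ephb3, and in 10 for Cpm, 10 for Limch1 and 11 for C10h17orf58. Other probe sets that were not called differed by 0.43 for Cpm, -0.21 for Ncald and 0.97 and 0.36 for Limch1, and that of C10h17orf58 was higher (1.07) but no peak.

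Tnni2, fast skeletal muscle troponin I, is a peak gene that is also on the muscle marker list. Its values were 11368, 7061, 7976 and 12845 in resting, 5354, 3182, 3615 and 6005 in epiphyseal and 1892, 1859, 1057 and 1879 in proliferative arrays, without overlap and with the resting arrays of animals 1 and 5 the highest. The within-animal differences from epiphyseal cartilage were nearly equal, at 1.08, 1.15, 1.14 and 1.10 log2 units in animals 1, 2, 4 and 5. On the proliferative side they were less even, at 2.58, 1.92, 2.9 and 2.76. Tnnc2, troponin C of fast muscle, varied more in signal than Tnni2. It read 7423, 439.8, 460.1 and 10168 in the resting arrays, where animals 2 and 4 were far below animals 1 and 5. In epiphyseal cartilage it read 8975, 99.3, 108 and 1111. Of the 15 tested muscle markers, 4 were called higher than the average (Tnni2, Tnnc2, Myl1 and Casq1) and 0 lower, against 1.25% and 0.712% of all genes, with a median difference of 1.06 against 0.0. Without the resting arrays of animals 1 and 5, without the replicate block and with no trend the Tnni2 peak was no longer called (highest adjusted p over the settings 0.159), while its call against the average held in all 14 settings.

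**Figure D3:**
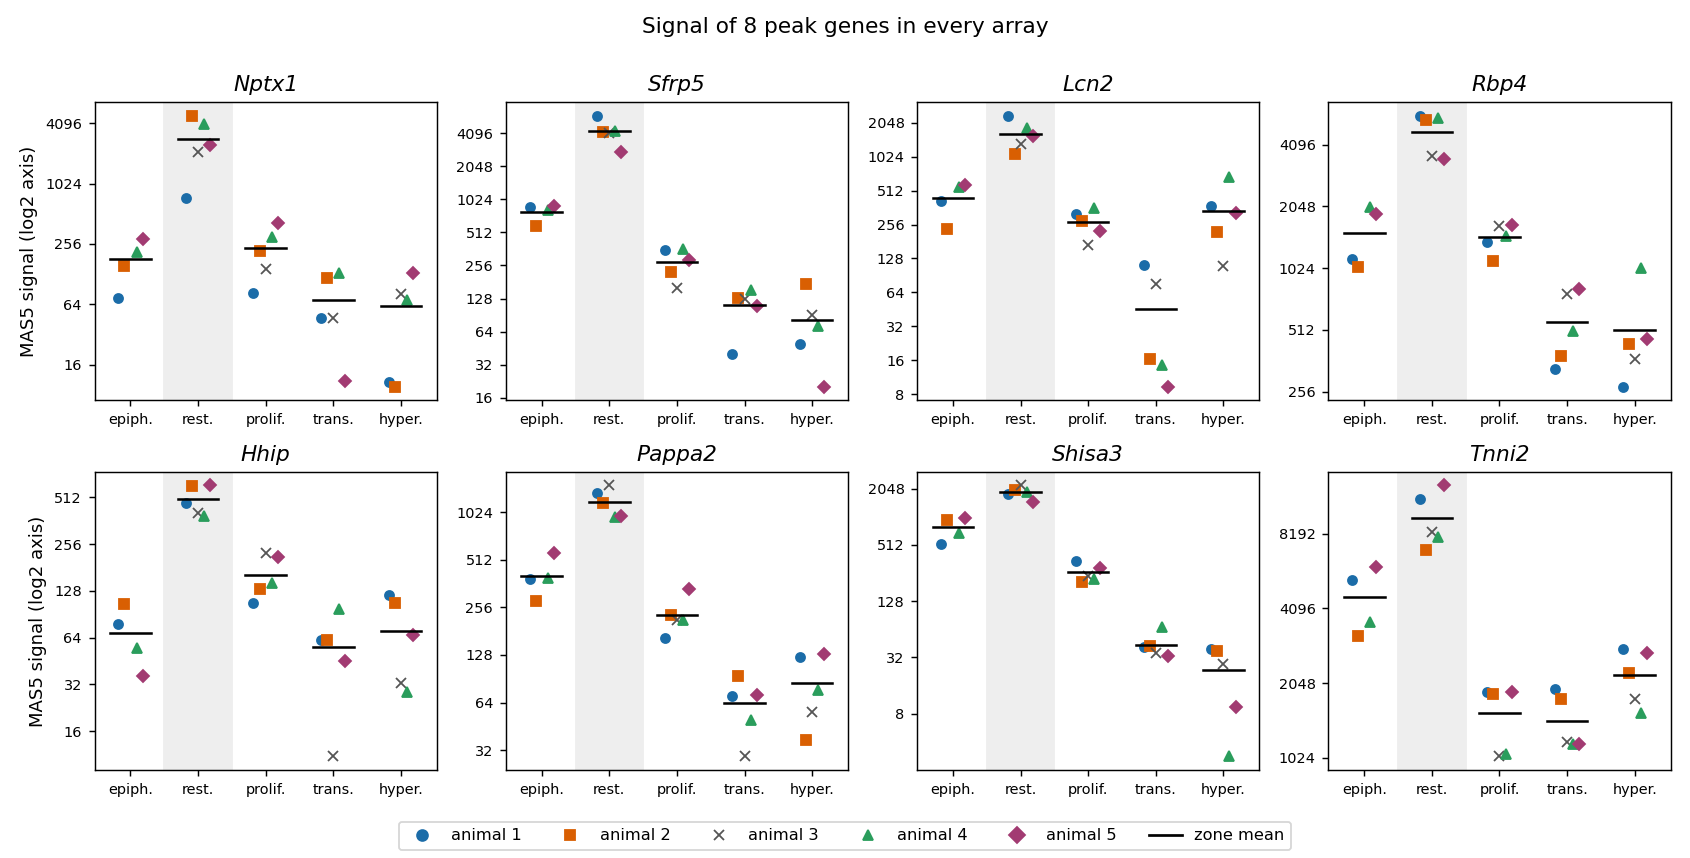
MAS5 signal (log2 axis) of 8 peak genes in every array of the 5 zones, from epiphyseal cartilage to the hypertrophic zone, with 1 symbol per animal, a line at the mean and the resting zone shaded. In all 8 genes the 4 resting values of animals 1, 2, 4 and 5 lie above those of both neighbours, and crosses show animal 3, which the fit did not use.

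Wnt4, Wnt5b and Bmp2, ligands of the Wnt and BMP families, were dips. Wnt4 (1368641_at), a Wnt ligand found in maturing chondrocytes and around joints, read 599, 229.9, 569.9 and 229 in the resting arrays of animals 1, 2, 4 and 5. It read 1528, 1742, 2794 and 1440.3 in epiphyseal cartilage and 2436, 1601, 2420.2 and 1634 in the proliferative zone, so the neighbours overlapped each other and lay wholly above the resting zone. The difference was -2.31 ± 0.17 from the average, -2.25 ± 0.20 from epiphyseal cartilage and -2.38 ± 0.20 from the proliferative zone (adjusted p of the dip 2.13e-05). Wnt5b, a ligand of the non-canonical Wnt pathway, read 455, 712, 1053 and 1001 in resting, 1093, 1476, 1837 and 1808 in epiphyseal and 4481, 3529, 5021 and 4847 in proliferative arrays. All resting values were below all others, and the step to the proliferative zone (-2.51 ± 0.16) was larger than that to epiphyseal cartilage (-0.98 ± 0.16). The Wnt5b dip held in 7 of the 14 other settings and in 1 of the 4 that left out an animal (adjusted p up to 0.297).

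Bmp2 (1398270_at), a ligand that drives chondrocyte maturation, had the reverse tilt. It read 463, 396, 579.8 and 557 in the resting arrays, 1321, 1572, 2085 and 1938 in epiphyseal cartilage and 836, 1166, 1264 and 1038 in the proliferative zone. The 3 tissues did not overlap, and the difference from the average was -1.42 ± 0.13 (adjusted p 4.86e-06). The dip was lost without animal 2 and without the replicate block, with adjusted p up to 0.0847. Another Bmp2 probe set was lower (-1.11) but no dip.

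S100a6, Anxa8, Anxa7 and Tgm2 were dips as well. S100a6 (1367661_at), a small calcium-binding protein, read 1468, 589, 795 and 707 in the resting zone, 4938, 4843, 5046 and 4271 in epiphyseal cartilage and 4164, 2293, 3019.7 and 3873 in the proliferative zone. Anxa8, an annexin that binds membrane phospholipids in the presence of calcium, read 2462, 2465, 2963 and 2438, 8239, 12382, 13885 and 12919.8 and 10067, 9114, 6909 and 7968 in that order. Neither gene's resting values reached those of a neighbour, and the differences from the average were -2.21 ± 0.16 and -1.94 ± 0.14 (adjusted p of the dip 3.06e-05 and 5.53e-05). Anxa7, another annexin, differed by -1.02 ± 0.12, but its other probe set differed by -0.24 and was not called, and the dip held in 5 of the 14 other settings (adjusted p up to 0.3). Tgm2, the calcium-dependent enzyme that cross-links matrix proteins, read 901, 855, 1232 and 771 in resting, 2465, 2195, 2645 and 1894 in epiphyseal and 2505, 2174, 3532 and 1846 in proliferative arrays, a difference of -1.34 ± 0.11 with no overlap, while its other probe set differed by -0.47 and was not called. Read by their brightest probe sets, Wnt4, S100a6, Anxa8 and Tgm2 were the 4 of 22 dip genes whose call held under all 14 other settings.

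**Figure D4:**
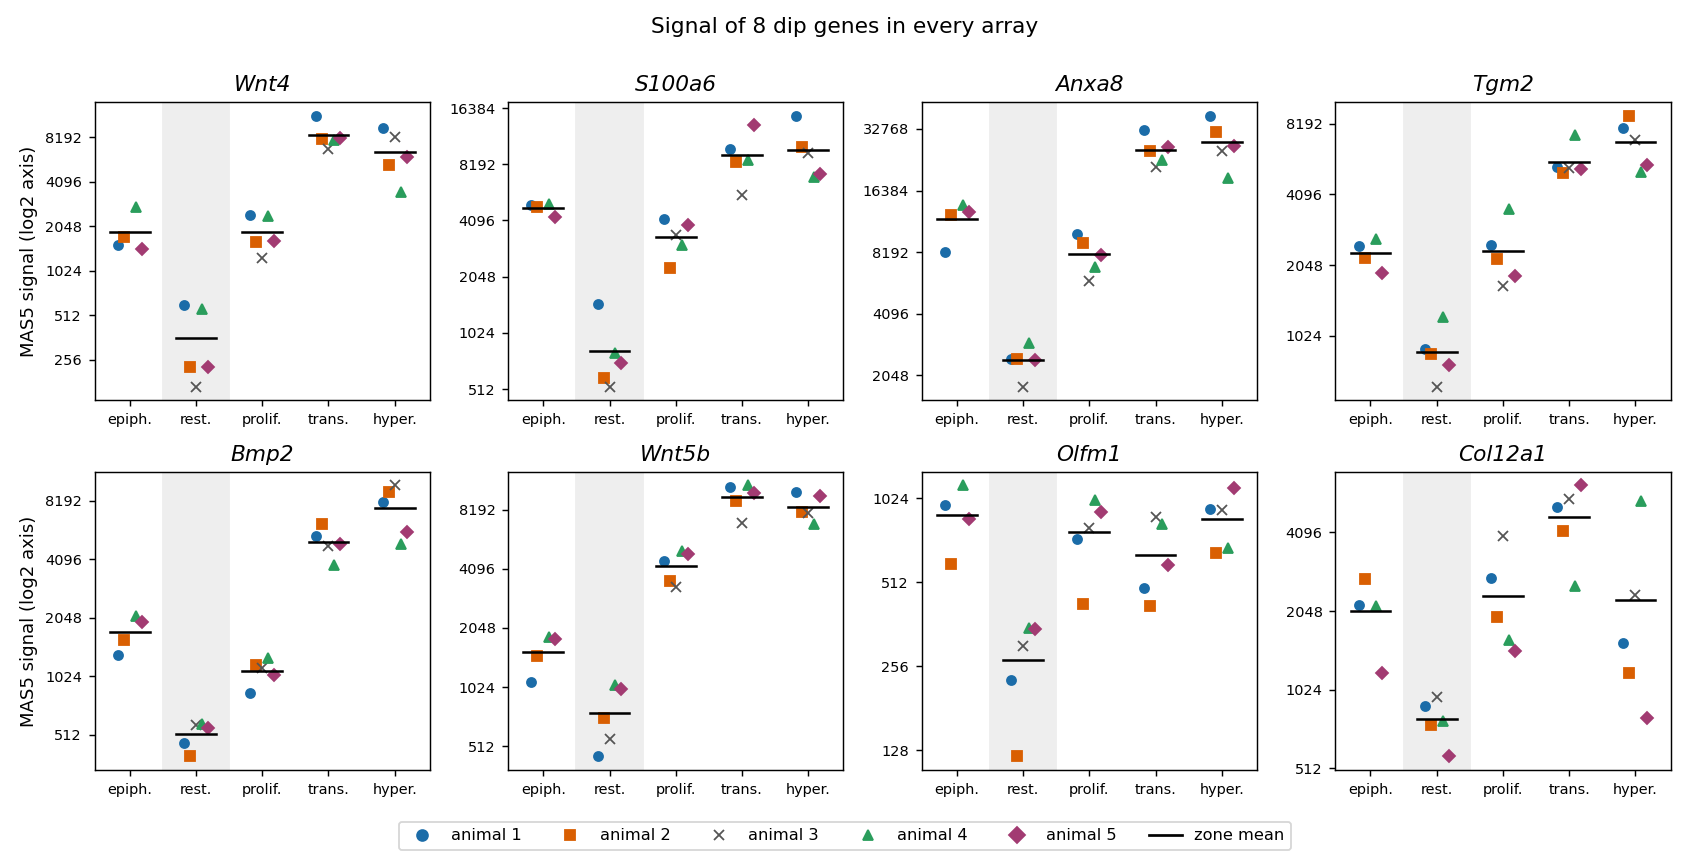
MAS5 signal (log2 axis) of 8 dip genes in every array of the 5 zones, drawn with 1 symbol per animal, a line at the mean and the resting zone shaded. The resting values of animals 1, 2, 4 and 5 lie below those of both neighbours for all 8 genes, and in 7 of the 8, Olfm1 being the exception, the transition mean exceeds both neighbour means.

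Promoter sequence was available in RefSeq (build GRCr8) for 15 of the 19 peak genes and 16 of the 22 dip genes, and the 250 bases before the start of 2 peak and 2 dip genes whose calls held under every setting are printed to show how unlike they are. Each runs 5′ to 3′ on the gene's strand, and capitals mark a TATA box (TATAAA) or a GC box (GGGCGG, or CCGCCC on the other strand; adjoining matches overlap).
Sfrp5, chr1:250960513-250960762, minus strand: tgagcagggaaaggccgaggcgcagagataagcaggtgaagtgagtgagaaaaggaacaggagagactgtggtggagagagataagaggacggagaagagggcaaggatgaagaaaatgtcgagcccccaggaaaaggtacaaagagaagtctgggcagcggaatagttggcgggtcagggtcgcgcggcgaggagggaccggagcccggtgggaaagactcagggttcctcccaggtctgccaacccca
Rbp4, chr1:245313552-245313801, minus strand: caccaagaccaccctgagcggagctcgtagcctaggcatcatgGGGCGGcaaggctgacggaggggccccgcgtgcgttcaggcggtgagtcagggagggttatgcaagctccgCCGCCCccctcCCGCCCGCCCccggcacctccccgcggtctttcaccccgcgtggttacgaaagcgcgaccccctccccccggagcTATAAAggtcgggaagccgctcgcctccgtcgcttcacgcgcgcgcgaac
Wnt4, chr5:154797200-154797449, plus strand: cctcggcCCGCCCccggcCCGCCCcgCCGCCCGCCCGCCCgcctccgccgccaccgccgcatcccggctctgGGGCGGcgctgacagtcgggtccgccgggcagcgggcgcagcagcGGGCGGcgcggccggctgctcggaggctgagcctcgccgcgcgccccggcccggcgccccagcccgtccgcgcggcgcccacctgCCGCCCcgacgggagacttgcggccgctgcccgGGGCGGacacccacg
S100a6, chr2:178398287-178398536, plus strand: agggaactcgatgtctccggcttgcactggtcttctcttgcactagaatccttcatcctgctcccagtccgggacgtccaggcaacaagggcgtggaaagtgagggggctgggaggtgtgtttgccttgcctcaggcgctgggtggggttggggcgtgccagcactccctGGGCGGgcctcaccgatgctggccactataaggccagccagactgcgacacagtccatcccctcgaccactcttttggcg
In these windows the Wnt4 promoter is 86.4% G or C, Rbp4 70.8%, S100a6 62.4% and Sfrp5 58.0%. Searching both strands, TATAAA occurred in 5 of 15 peak and 2 of 16 dip promoters, against 13.1% of 27457 RefSeq promoters of the same length, GGGCGG in 7 and 9 against 32.4%, and CCAAT in 4 and 6 against 34.3%. A Gli-type motif (GACCACCCA, in 0.331% of all promoters) and a TCF/LEF-type motif (CTTTGAT, 3.18%) occurred in 0 peak and 0 dip promoters, which says only that these letters are not in the windows. The median G and C share was 62.8% over the peak, 61.4% over the dip and 52.0% over all promoters. These matches are descriptions of sequence and were not tested against the expression values.

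Matrix, metabolic and other genes made up the rest of the dips. Col12a1, a collagen that associates with the surface of fibrils, read 886, 748, 779 and 568 in resting, 2152, 2723, 2148 and 1183 in epiphyseal and 2752, 1949, 1579.9 and 1443 in proliferative arrays, a difference of -1.36 ± 0.14 without overlap. PCOLCE2, which enhances the procollagen protease activity of BMP1, differed by -1.59 ± 0.14, the opposite direction to Bmp1. Ccdc80, a matrix protein, differed by -1.39 ± 0.13, Olfm1, a secreted olfactomedin, by -1.65 ± 0.16, and Lrrc17, a secreted leucine-rich repeat protein, by -1.57 ± 0.16. Sgms2, a sphingomyelin synthase, differed by -1.70 ± 0.22 and Fdps, which makes farnesyl diphosphate in the mevalonate pathway, by -1.05 ± 0.13. The resting values of Fdps were 3156, 2492, 2144 and 1752, and the highest of them lay just under the lowest epiphyseal value, that of animal 5 (4973, 4366, 4717 and 3179.7 in epiphyseal cartilage). Of the 14 other settings the dip held in 7 for PCOLCE2 and 7 for Fdps (adjusted p up to 0.59 and 0.49), 8 for Lrrc17, and from 10 to 13 for Ccdc80, Sgms2, Col12a1 and Olfm1. Other probe sets of Col12a1 and Olfm1 differed by -1.13 and -0.79 and were not called.

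The last 8 dips were mostly single members of unrelated families. Cdo1, the cysteine dioxygenase that starts taurine synthesis, differed by -1.41 ± 0.13, and Dst, a linker between the cytoskeleton and cell junctions, by -1.09 ± 0.12. Lrrc8c, a subunit of volume-regulated anion channels, differed by -1.12 ± 0.15, Arf2, a vesicle transport GTPase, by -1.09 ± 0.16, and Sidt2, a lysosomal membrane protein, by -1.19 ± 0.12. Tprg1l differed by -1.11 ± 0.14, Rom1, a tetraspanin known from photoreceptors, by -1.28 ± 0.22, and Fam81a by -1.60 ± 0.19. Of the other probe sets of Fam81a, 1 was called lower (-1.71) and 1 was not (-1.48), and neither was a dip. Another probe set of Lrrc8c differed by -0.70 and was not called. The dip call held in 2 of the 14 other settings for Rom1, 4 for Cdo1, 5 for Arf2 and 6 each for Fam81a, Dst and Sidt2, against 9 for Tprg1l and 10 for Lrrc8c. Rom1, Cdo1, Arf2 and Fam81a lost it whichever animal was left out.

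**Figure D5:**
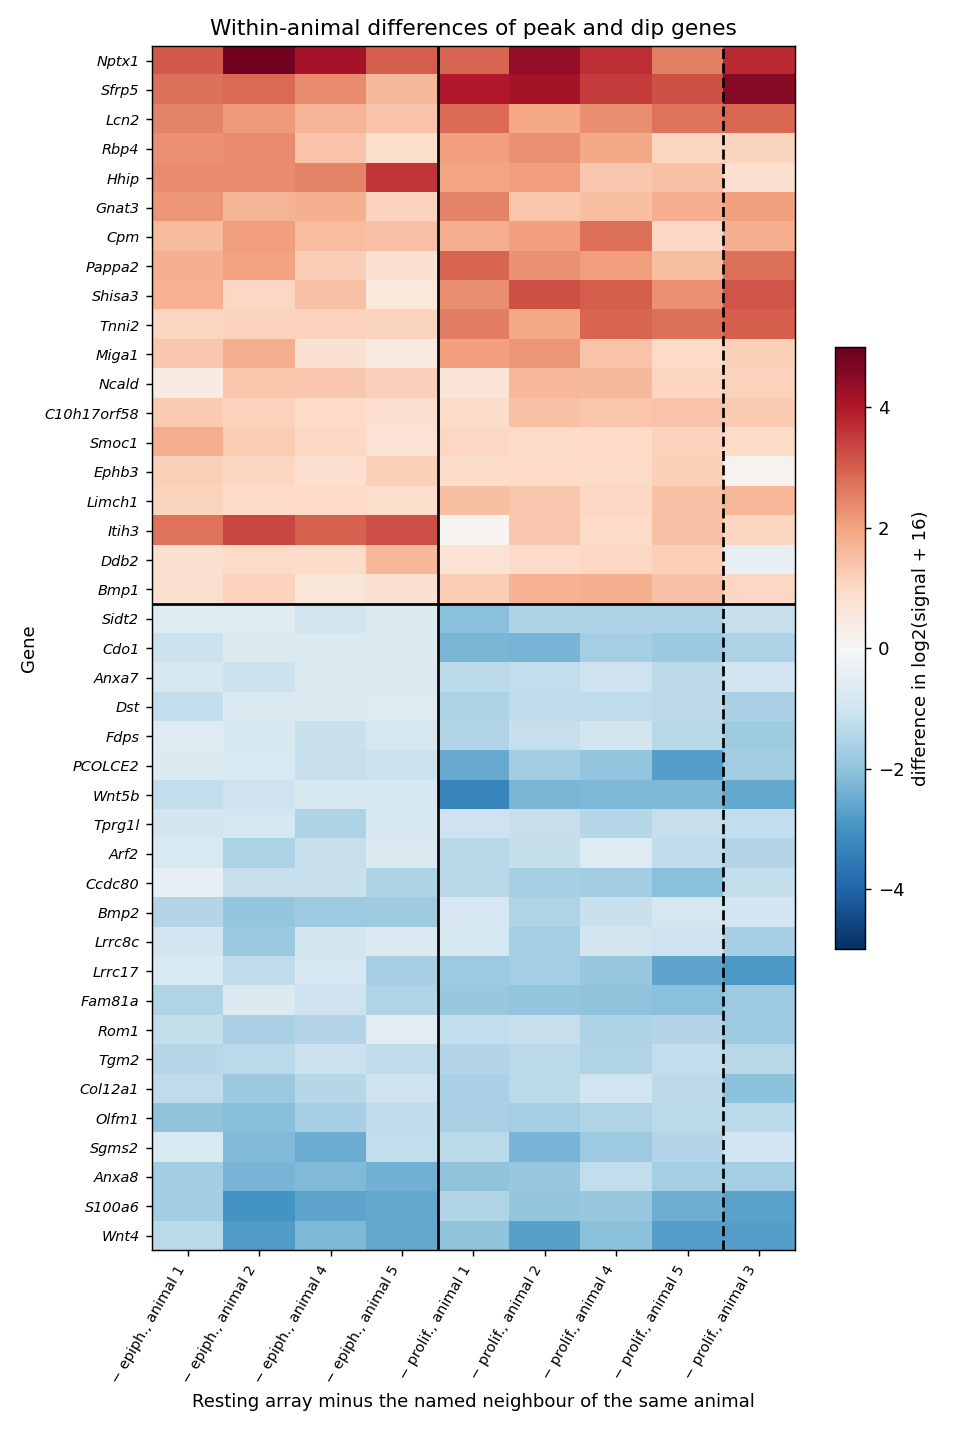
Within-animal difference in log2(signal + 16) between the resting array and each neighbour, for the 19 peak genes (top) and 22 dip genes (bottom). The first 4 columns are against epiphyseal cartilage and the next 4 against the proliferative zone in animals 1, 2, 4 and 5, and the last, after the dashed line, is animal 3. All cells of the first 8 columns have the sign of the call, and in animal 3 the one exception is Ddb2 at -0.41.

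Animal 3, which the fit did not use, gave a separate reading of the proliferative side. There 32 of the 33 peaks were higher in the resting than in the proliferative array, with a median difference of 1.29 log2 units, and 26 of the 26 dips were lower, with a median of -1.68. Over all tested probe sets 51.2% were higher. The exception was Ddb2 at -0.41, and the smallest positive differences included Ephb3 at 0.19 and Hhip at 0.82, while Sfrp5 reached 4.57 and Wnt4 -2.77. The resting array of this animal also held muscle RNA: the 15 muscle markers were all higher than in its proliferative array, by a median of 3.93, so the Tnni2 value of 2.99 stood within a list that was higher as a whole. Other marker lists were higher there too, with 4 of 4 leukocyte markers (median 2.30), 6 of 6 osteoclast and macrophage markers (1.92) and 10 of 12 perichondrium and fibroblast markers (1.24), and their part in these differences was not tested. No such check was possible on the epiphyseal side.

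Along the whole plate the peak genes were mostly highest, and the dip genes mostly lowest, in the resting zone. Of the 19 peak genes the resting zone had the highest mean of the 5 zones in 18, the exception being Bmp1, whose hypertrophic mean was higher. Of the 22 dip genes it had the lowest mean in 21, the exception being Lrrc17, whose hypertrophic mean was lower. The place against epiphyseal cartilage and the proliferative zone follows from the calls, so only the transition and hypertrophic means are free in these counts. No share over all genes is given for them. These orders are of mean log2 levels over all arrays of a zone, at 11.92 in the hypertrophic against 11.44 in the resting zone for Bmp1, and at 8.34 against 8.69 for Lrrc17. Among the peak genes all 19 had a transition mean below both neighbours of the resting zone and 14 a hypertrophic mean below both. The dip genes ran the other way, with 19 of 22 above both neighbours in the transition and 17 in the hypertrophic arrays. Wnt4 averaged 8467 ± 1779 in the transition arrays (n = 5), Bmp2 7512 ± 2149 in the hypertrophic arrays (n = 5), and Anxa8 28290 ± 7131 there. Measured against the average of the 2 neighbours, 93.9% of the 33 peak probe sets and 11.5% of the 26 dip probe sets were lower in the transition arrays, where 57.6% of all tested probe sets were lower, and 84.8% and 7.69% were lower in the hypertrophic arrays, where 56.8% of all were. In 13 of the 19 peak genes and 17 of the 22 dip genes epiphyseal cartilage was the neighbour closer in level.

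Gene lists are given beside all 9690 genes, of which 1.25% were called higher and 0.712% lower than the average of the neighbours, 0.196% were peaks and 0.227% dips, and 21.5% had an unadjusted p below 0.05 in either direction. Of 10 tested hedgehog and PTHrP genes among 21 listed, 2 were called higher (Hhip and Boc), 0 lower and 1 was a peak, with a median difference of 0.30 and 7 at an unadjusted p below 0.05. Pthlh, the gene of PTHrP, and Ptch1 were among the listed genes that were not tested. Boc, a co-receptor for hedgehog, stepped instead of peaking, at 10955, 8661, 9125 and 9432 in resting, 6098, 6295, 8886 and 10342 in epiphyseal and 1123, 652, 1200.1 and 983 in proliferative arrays. Resting and epiphyseal values overlapped (0.30 ± 0.16, adjusted p 0.344) and both lay far above the proliferative zone (3.28 ± 0.16). Gli1, the transcription factor most directly induced by the pathway, read 164, 214, 42.1 and 66.3 in epiphyseal, 934, 633, 1079.5 and 1377 in resting and 1768, 1494, 2703 and 2452 in proliferative arrays, in 3 separate ranges with the resting zone in the middle. The resting zone lay 3.05 ± 0.37 above epiphyseal cartilage (adjusted p 0.000135) and differed by -1.07 ± 0.37 from the proliferative zone (adjusted p 0.0615), so against the average it was not called (0.99 ± 0.32, adjusted p 0.0731, from 1.74e-05 to 0.526 over the other settings).

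Among the other hedgehog and PTHrP members, Gli2 and Smo, an activating transcription factor and the signal transducer of the pathway, lay 0.88 ± 0.12 and 0.56 ± 0.14 above the average, under the 2-fold limit (adjusted p 0.000183 and 0.0179). Pth1r, the receptor for PTHrP, differed by -0.73 ± 0.13, with means of 6284 ± 1544 in the resting zone, 13950 ± 3201 in epiphyseal cartilage and 7699 ± 985 in the proliferative zone. Ihh, the ligand, differed by -1.16 ± 0.39 (adjusted p 0.0833), the inhibitor Sufu by -0.80 ± 0.48, Kif7, a kinesin that regulates Gli proteins, by -0.21 ± 0.16, and Disp1, which releases hedgehog from cells, by 0.03 ± 0.19. The sign for Disp1 turned without animal 5 and in both settings that left out arrays with marker signal. Ihh was at its highest further down the plate, at 8285 ± 2254 in the transition and 10410 ± 2496 in the hypertrophic arrays (n = 5 each).

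Among 19 tested BMP ligands, receptors and response genes 1 was called higher (Bmp3) and 2 lower (Bmp2 and Gdf10), with a median of -0.26, and among 11 tested antagonists and modulators 3 were higher (Grem1, Bmper and Bmp1) and 0 lower, with a median of 0.34, against 1.25% higher and 0.712% lower among all genes. No difference between these 2 lists was tested. Bmp3, a ligand that opposes other BMPs, exceeded the average by 2.74 ± 0.21 through its step over the proliferative zone (4.86 ± 0.24), and its difference from epiphyseal cartilage was 0.62 ± 0.24 (adjusted p 0.175). Grem1, a secreted BMP antagonist, read 1128, 1261, 2441 and 2049 in the resting, 2107, 2792, 3601 and 3795 in the epiphyseal and 6.7, 8.9, 8.5 and 42.9 in the proliferative arrays. Its resting and epiphyseal values overlapped between animals, although the resting array was below the epiphyseal array of every animal (-0.87 ± 0.22, adjusted p 0.0335), and 3 of the 4 proliferative values lay below the pseudocount of 16. Bmper, which binds BMPs outside the cell, was the reverse, 2.51 ± 0.17 above epiphyseal cartilage and -0.19 ± 0.17 from the proliferative zone. Gdf10, a BMP-like ligand, climbed from 88.4 ± 31.1 in epiphyseal cartilage through 312 ± 93.3 in the resting zone to 4672 ± 155 in the proliferative zone.

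Wnt genes gave 2 calls among 11 tested ligands and receptors, both the dips Wnt4 and Wnt5b, and 1 among 14 inhibitors, agonists and feedback genes, the peak Sfrp5. The median differences of these lists were 0.06 and 0.08. Frzb, another secreted Frizzled-related protein, did not peak, with 36990 ± 7855 in epiphyseal cartilage, 30980 ± 5278 in the resting zone and 10330 ± 3320 in the proliferative zone. Axin2, a feedback gene of canonical Wnt signalling, averaged 103 ± 23.7 in the resting zone against 209 ± 89.6 and 228 ± 52.9, a difference of -0.95 ± 0.31 that was not called (adjusted p 0.0744).

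Other growth factor lists held single calls. In the GH and IGF list 1 of 18 tested genes was called, the peak Pappa2, with Igf1 at 1.01 ± 0.58 (adjusted p 0.351) and Igf2r at 0.30 ± 0.10. Of 9 FGF genes, Fgfr1 was higher (1.27 ± 0.17), and its peak test missed the threshold (adjusted p 0.0574). Of 12 TGF-beta genes, Ltbp1, which tethers latent TGF-beta in matrix, was higher (1.30 ± 0.20) through the proliferative side alone (3.18 ± 0.23, against -0.58 ± 0.23 from epiphyseal cartilage). In the limma fit 0 of 10 Notch genes and 0 of 28 cell cycle genes were called, with 1 and 6 at an unadjusted p below 0.05 and medians of 0.15 and -0.17. The 4 cell cycle genes of smallest adjusted p against the average were all lower than in the proliferative zone. Cks2, Ccna2, Aurka and Ccnd2 differed from it by -1.11 ± 0.16, -1.01 ± 0.22, -0.96 ± 0.29 and -0.44 ± 0.12 (adjusted p 0.000118, 0.00416, 0.0317 and 0.021, limma). From epiphyseal cartilage they differed by -0.13, -0.01, -0.37 and -0.18. The rest of the list is not given by side. Of 23 chemokine and guidance genes 4 were higher and 1 lower. Cxcr4, the receptor for Cxcl12, exceeded epiphyseal cartilage by 2.64 ± 0.19 and the proliferative zone by 0.61 ± 0.19, and Unc5b, a netrin receptor, differed by -1.21 ± 0.16 from the average. Other probe sets of Cxcr4 differed from the average by 1.76 (called higher) and 0.84 (not called), and that of Unc5b by -0.80 (not called). In animal 3 the Cxcr4 difference from the proliferative zone had the other sign, -0.70.

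Matrix genes called higher in the resting zone stood mainly above the proliferative zone. Of 30 proteoglycan and other cartilage matrix genes 4 were higher (Dcn, Thbs2, Efemp1 and Smoc1) and 0 lower, against 1.25% and 0.712% of all genes, with a list median of -0.02. Dcn, decorin, averaged 2511 ± 821 in resting, 1419 ± 405 in epiphyseal and 328 ± 80.7 in proliferative arrays, and Efemp1, fibulin-3, 2938 ± 1229, 2743 ± 653 and 229.6 ± 53.5. Of 25 collagens, Col14a1 was higher and Col10a1 and Col12a1 were lower. Another probe set of Col14a1 differed by 0.86 from the average and was not called. Serpine2, an inhibitor of serine proteases, exceeded the proliferative zone by 4.42 ± 0.15 and epiphyseal cartilage by 0.52 ± 0.15 (adjusted p 0.0674), so it was higher than the average (2.47 ± 0.13) and no peak. Of 11 genes of the epiphysis and joint surface 3 were higher (Vit, Dcn and Abi3bp), and Abi3bp read 3966 ± 977 in epiphyseal cartilage, 3262 ± 827 in the resting zone and 151 ± 21.6 in the proliferative zone.

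Of 20 tested genes of hypertrophy and mineralization 4 were called lower (Col10a1, Alpl, Phospho1 and Panx3) and 0 higher, against 0.712% and 1.25% of all genes, with a median of -0.22. Col10a1, Alpl and Phospho1 differed mainly from epiphyseal cartilage (-3.43 ± 0.62, -3.02 ± 0.30 and -1.72 ± 0.27), the side where batch and zone cannot be told apart. From the proliferative zone they differed by -1.72 ± 0.62, -0.83 ± 0.30 and -0.63 ± 0.27 (adjusted p 0.0725, 0.069 and 0.126, limma). Col10a1, the collagen of hypertrophic cartilage, read 236, 727, 525 and 2136 in resting, 13967, 6418, 10599.7 and 3034 in epiphyseal and 4133, 4898, 628 and 1939 in proliferative arrays. The resting value was the lowest in animals 1, 2 and 4, while in animal 5 it lay slightly above the proliferative value, and the difference from the average was -2.57 ± 0.54 (adjusted p 0.00674, from 0.000341 to 0.0692 over the other settings). Alpl, the phosphatase of mineralizing cells, averaged 107 ± 65.1 in the resting zone, 889 ± 164 in epiphyseal cartilage and 182 ± 33.5 in the proliferative zone. Panx3, a channel protein of maturing chondrocytes, stepped up in the proliferative zone from 322 ± 77.7 to 8155 ± 2720 with epiphyseal cartilage at 341 ± 286. Among 29 transcription factors 2 were lower (Runx3 and Dlx5) and 0 higher, with a median of 0.48, and Runx3 followed the same step (-2.85 ± 0.20 from the proliferative zone, 0.11 ± 0.20 from epiphyseal cartilage). Another probe set of Runx3 differed by -0.30 from the average and was not called.

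Of 20 tested early response and stress genes 3 were called lower, Fos, Klf4 and Hspb1, and 0 higher, against 0.712% and 1.25% of all genes. At an unadjusted p below 0.05 there were 5 of the 20, a share near the 21.5% of all genes. Fos, an immediate early transcription factor, read 305, 245, 309.7 and 429 in resting, 1864, 3542, 489 and 524 in epiphyseal and 556, 2642, 1098 and 1125 in proliferative arrays. The resting array was the lowest within every animal, by -1.82 ± 0.39 against the average (adjusted p 0.00792), and without animal 2, whose 2 neighbour arrays were the highest of their tissue, the adjusted p was 0.095. Klf4 and Hspb1 differed by -1.14 ± 0.19 and -1.43 ± 0.24. In animal 3 their differences from the proliferative zone were -0.01 and 1.75. Of 15 tested genes, among 22 listed, that the literature ties to the resting zone or skeletal stem cells, 1 was called, the peak Sfrp5. The median difference of the tested genes was -0.02. Pthlh, Sox9, Gas1, Eng, Mcam, Hmga2 and Cd44 of that list were not tested, so nothing is shown about them. Cd200 and Apoe of that list lay 0.95 ± 0.24 and 0.75 ± 0.21 above the average, under the 2-fold limit, each through the proliferative side.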

How the data were processed

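The deposited table holds linear intensity values, namely MAS5 signals per the submitters' processing notes, whose software version is not given in the sources. The mean without the outer 2% of signals at each end was 500.0 in every array, so a level is relative to its array. The number of arrays limits the precision.

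From these values log2(signal + 16) was taken with no further normalization, which understates the fold of dim probe sets. Of 31042 probe sets other than controls, 16987 (54.7%) lay above their array's median in at least 4 of the 12 arrays and were tested. The platform annotation gave a single symbol to 12511 of these, several to 292 and none to 4184, and only the first were named. Each gene was read by the brightest of its tested probe sets, which gave 9690 genes.

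Differences were fitted in R 4.3.3 with limma 3.58.1 (lmFit, then contrasts.fit, then eBayes, trend on) over the 12 arrays with the animal as a fixed block, leaving 6 residual degrees of freedom, and the Benjamini-Hochberg adjustment ran over 16987 probe sets. The array titles give a Biol rep number, which was read as the animal. Deviations from the tissue mean had a median correlation, over probe sets, of 0.288 between arrays of one animal (0.189 to 0.419, 12 pairs). Between animals it was -0.109 (36 pairs). Taking out the mean of the same 4 animals makes the value between animals negative when that within animals is positive, so it is no separate evidence. In simulated data of the same size, 79 of 100 peaks of 3-fold and 92 of 100 of 6-fold were recovered, with 0 of 100 one-sided steps and 2 of 16687 unchanged probe sets called. The simulated noise was normal and independent between probe sets. It held no batch and no arrays with added muscle or osteoclast signal, so these rates need not hold for the real arrays.

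The comparison, the gene lists and the rule for named genes were chosen with earlier results of these data known. That rule takes the 14 peaks and 14 dips with the largest difference from the closer neighbour, up to 6 called genes on each side whose resting mean lies between the neighbours, every tested hedgehog and PTHrP gene, and of each other list its peaks, its dips and the 4 genes of smallest adjusted p. Of the 14 other settings, 12 were no filter, no trend, no replicate block, all 24 arrays, pseudocounts of 1 and 64, quantile normalization, arrays scaled to equal medians and leaving out each of the 4 animals; the other 2, without the epiphyseal arrays of animals 1 and 2 and without the resting arrays of animals 1 and 5, were added after seeing the data. Python 3.11.15 with matplotlib 3.10.9 drew the figures.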

Additional observations from a re-analysis of the deposited data

Results flagged for a closer look

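Of 153 groups of arrays examined, 7 held 1 array far from the others, each for a named peak or dip gene. About 1 in 20 is flagged by chance. The ranges below cover animals 1, 2, 4 and 5 and leave out animal 3. In signal, the resting array of animal 3 read 3587 for Rbp4, beside 3469 in animal 5. Its proliferative array read 1037 for Tnni2, beside 1057 in animal 4. For Ephb3 its resting array read 1158, between the flagged 886 of animal 2 and the other resting arrays. For Anxa8 its resting array read 1805, the lowest, while the flagged array of animal 4 was the highest at 2963. For Ddb2 its proliferative array read 537, the highest, while the flagged array of animal 4 was the lowest at 227. The values that follow are log2(signal + 16). Sfrp5 was 9.22 in the epiphyseal array of animal 2 against 9.71 to 9.81 in the others, and Rbp4 was 11.77 in the resting array of animal 5 against 12.40 to 12.47. Tnni2 was 10.07 in the proliferative array of animal 4 against 10.87 to 10.90, and Ddb2 was 7.92 there against 8.53 to 8.58. Ephb3 was 9.82 in the resting array of animal 2 against 10.51 to 10.52, Anxa8 was 11.54 in the resting array of animal 4 against 11.26 to 11.28, and Lrrc8c was 10.20 in the epiphyseal array of animal 5 against 10.94 to 11.03.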

How the results depend on the processing

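The 244 higher and 107 lower probe sets, 33 peaks and 26 dips stayed within 1.5 times their number with a pseudocount of 1 or 64, after quantile or median scaling, with no filter, or when the epiphyseal arrays of animals 1 and 2 were dropped. Without the replicate block 70 were lower, 10 were peaks and 6 were dips. With all 24 arrays 17 were peaks, and with no trend 10 were peaks and 8 dips. Leaving out each animal gave 190 to 254 higher, 64 to 117 lower, 6 to 29 peaks and 7 to 20 dips, the lowest each time without animal 2. Without the resting arrays of animals 1 and 5, 150 were higher, 9 were peaks and 13 were dips; these fits hold fewer arrays, and otherwise the cause was not tested. The difference of Disp1 changed sign, lying between -0.07 and 0.14 with 1 animal left out, and reached -0.03 without the epiphyseal arrays of animals 1 and 2 and -0.13 without the resting arrays of animals 1 and 5. Over all named genes and settings, 1945 values kept direction and call, 300 lost the call, 20 gained it and 3 reversed. MAS5 signals near background carry no detection call here, so dim genes such as Grem1 in the proliferative zone are least certain.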

Other observations

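A list of sterol and fatty acid synthesis genes was put together after the values were seen, and gets no test. Of 30 genes 26 were tested, 0 were called higher and 3 lower than the average (Fdps, Scd and Tm7sf2), against 1.25% and 0.712% of all genes. The median difference was -0.53 against 0.0 for all genes, and the resting mean lay below both neighbours in 21 of 26, against 2785 of 9690 genes. Scd, which makes monounsaturated fatty acids, averaged 262 ± 76.3 in the resting zone, 484 ± 144 in epiphyseal cartilage and 1638 ± 933 in the proliferative zone. Cyp51, a demethylase of sterol synthesis, averaged 4692 ± 729.9, 8055 ± 2501 and 9720 ± 1114, a difference of -0.90 ± 0.13 that was under the 2-fold limit. The transcription factors Srebf1 and Srebf2, which control the pathway, differed by 0.25 ± 0.12 and 0.13 ± 0.19.

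Several strong peaks and dips have no gene name here. Probe set 1376435_at was a dip with differences of -2.54 from epiphyseal cartilage and -3.22 from the proliferative zone, and 1385038_at was a peak with differences of 3.25 and 2.45.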
